A study of Mus musculus with 10 samples.

Results

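The genes described here encode 10 integrin subunits, 5 α subunits (Itga2, Itga3, Itga5, Itga6 and Itgav) and 5 β subunits (Itgb1, Itgb4, Itgb5, Itgb6 and Itgb8). They were found by gene symbol among 17658 genes in the RNA-seq table of the SB431542 experiment and 16719 genes in that of the T-5224 experiment, and all 10 were listed in both. The cells were ASZ001, a murine basal cell carcinoma (BCC) line selected for resistance to Smoothened inhibitors, and every library came from cells held in low serum for 24 h. One experiment compared 3 libraries of cells given 10 µM SB431542, an inhibitor of the TGFβ type I receptor ALK5, with 3 libraries of cells given the vehicle DMSO. The other compared 2 libraries of cells given 20 µM T-5224, an inhibitor of the transcription factor AP-1, with 2 DMSO libraries of its own. The question was what each subunit's mRNA did when TGFβ or AP-1 signaling was inhibited. A single cell line was used, the doses differ, and the tables were normalised separately, so nothing was tested across the experiments.

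Integrins are cell surface receptors made of 1 α and 1 β chain, and the pair decides which matrix protein is bound. In basal keratinocytes α6β4 anchors cells to laminin in hemidesmosomes, α3β1 binds laminin at focal adhesions and α2β1 binds collagen. Integrin α5β1 binds fibronectin, and the αv integrins bind ligands that carry the RGD peptide. Among these, αvβ6 and αvβ8 bind the propeptide of latent TGFβ and release or expose the active ligand, so they stand upstream of the receptor that SB431542 inhibits.

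Values are RPKM, reads scaled to transcript length and to library size, and can therefore be compared between genes within a table. The libraries held about 31900000 to 51420000 reads, judged from the step that 1 read makes in the RPKM of short genes, and the thinnest value of a member, Itgb6 in T-5224 replicate 1, rested on about 291 reads. Each inhibitor was compared with its DMSO libraries with limma on log2(RPKM + 0.5) over all genes with a mean of at least 1 RPKM, which all 10 members passed. A gene is called lower or higher where the adjusted p (Benjamini-Hochberg over all genes tested) is under 0.05. The error of a log2 fold change is limma's moderated standard error (SE), which draws on the variance of all genes tested, and that of a mean is the SD. DMSO replicate 1 of the SB431542 experiment stood farthest from its group, with an SD of 0.272 for its log2 deviations against 0.161 and 0.190 for the other two. All 5 basal keratinocyte markers were present, and of the fibroblast, leukocyte, endothelial and melanocyte lists only Dcn, Cd68, Pecam1 and Mitf averaged 1 RPKM or more, while Lum, Tyrobp and Kdr were listed in neither table. As a check on SB431542, the TGFβ targets Pmepa1, Ctgf, Smad7 and Skil were all lower, Pmepa1 by −3.62 ± 0.071 on the log2 scale. With T-5224 Pmepa1 and Ctgf were lower, Smad7 was higher, and Skil did not pass.

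In the DMSO libraries of both experiments the β1 and β4 transcripts were the most abundant of the 10 subunits and β6 was the least abundant. In the SB431542 experiment the DMSO means ran from Itgb1 at 256 ± 11.04 RPKM through Itgb4 (187 ± 15.0), Itga3 (122 ± 3.89), Itga6 (72.8 ± 3.89), Itgb5 (63.0 ± 7.04), Itgav (28.5 ± 0.734), Itga2 (12.4 ± 1.33), Itga5 (9.89 ± 1.04) and Itgb8 (7.37 ± 0.935) to Itgb6 at 4.97 ± 0.649 (SD, n = 3 each). Of these neighbours, Itga6 and Itgb5 did not differ by more than the sum of their SDs. In the T-5224 table the controls had the order Itgb4 (238 ± 3.99), Itgb1 (161 ± 8.45), Itga6 (89.1 ± 1.04), Itgb5 (83.8 ± 4.07), Itga3 (75.6 ± 1.43), Itgav (22.3 ± 1.26), Itga5 (20.3 ± 1.40), Itga2 (16.7 ± 0.163), Itgb8 (12.8 ± 0.552) and Itgb6 (3.17 ± 0.0615), with n = 2 each. Here only Itgav and Itga5 lay within the sum of their SDs. Treated cells kept the order of their controls with SB431542, where Itgb8 and Itgb6 lay within the sum of their SDs. With T-5224 the order ran Itgb1, Itgb4, Itga3, Itgb5, Itga6, Itgav, Itga5, Itga2, Itgb8 and Itgb6, and Itga3 and Itgb5 lay within the sum of theirs. The 10 members held 99.6 to 99.8% of the RPKM of all integrin subunits in every library.

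**Figure D1:**
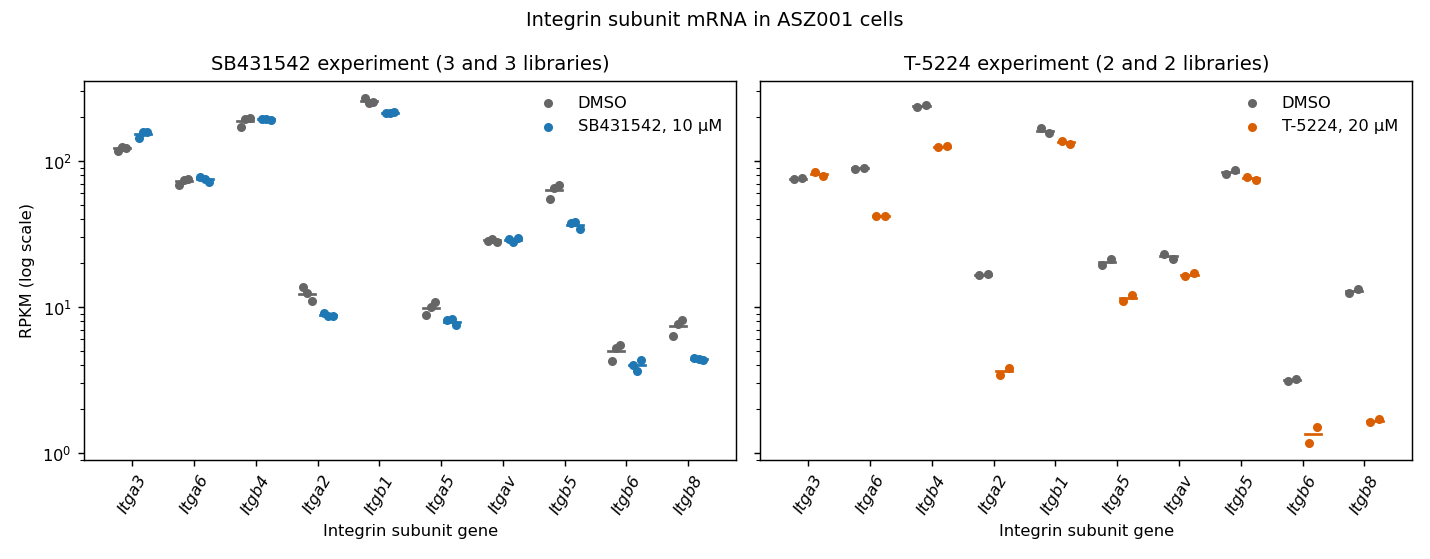
RPKM of the 10 integrin subunits (log axis) in each library, shown as points, with a bar at each group mean; grey is DMSO, blue is SB431542 (left) and orange is T-5224 (right). Itgb8 sits between 12.4 and 13.2 RPKM in DMSO and between 1.63 and 1.70 RPKM with T-5224.

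With SB431542, 5 of the 10 subunits were lower (Itga2, Itga5, Itgb1, Itgb5 and Itgb8), 1 was higher (Itga3), and Itga6, Itgav, Itgb4 and Itgb6 did not pass the test. Over all 10842 genes tested, 10.0% were lower and 10.2% higher. None of the members was beyond 2-fold, as were 0.581% of all genes on the lower side and 0.231% on the higher side. The members' median log2 fold change was −0.27, beside 0.0082 over all genes. The number lower went to 3 with the replicate number as a block, and to 2 without SB431542 replicate 2 or replicate 3 and 3 without SB431542 replicate 1. Without DMSO replicate 1 it was 6, Itgb6 being the sixth. The 1 higher call (Itga3) was lost without SB431542 replicate 2 and without replicate 3, where its adjusted p reached 0.0590.

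With T-5224, 9 of the 10 subunits were lower, none was higher with or without adjustment of the limma p, and Itga3 did not pass the test. Over all 10809 genes, 39.4% were lower and 40.3% higher, so most genes in this table passed in one direction or the other. Itga2, Itga6 and Itgb8 were lower by more than 2-fold, beside 10.6% of all genes on the lower side (10.4% were higher by that much). The members' median was −0.86 and that of all genes 0.0034. The summed RPKM of the 5 basal keratinocyte markers moved in the same direction, from 14543 to 15300 in DMSO to 2116 to 2224 with T-5224, and from 10497 to 10693 to 7223 to 7763 with SB431542. Krt5 and Krt14 were far above Trp63 in level, and Trp63 did not follow the sum with SB431542. It measured 81.4 ± 13.2 RPKM in DMSO and 86.6 ± 2.66 RPKM treated (limma adjusted p = 0.533). With T-5224 Trp63 was lower by −0.59 ± 0.054, beside −2.82 for Krt14 and −3.35 for Krt5. Of the other lists, the leukocyte sum went from 16.7 to 18.6 in DMSO to 32.7 to 33.2 RPKM with T-5224, the endothelial sum from 10.7 to 11.8 to 4.11 to 4.67 RPKM, and the melanocyte sum from 8.83 to 9.79 to 6.03 to 6.81 RPKM. The fibroblast sum was 2.54 to 2.58 in DMSO and 2.60 to 2.82 RPKM with T-5224. With SB431542 the endothelial sum went from 5.23 to 6.57 in DMSO to 2.60 to 2.83 RPKM and the fibroblast sum from 2.45 to 2.63 to 3.69 to 4.14 RPKM, while the leukocyte (7.01 to 10.5 and 7.71 to 8.33) and melanocyte sums (10.9 to 12.7 and 10.7 to 11.8) overlapped. The leukocyte, endothelial, melanocyte and fibroblast lists each held only 1 gene with a mean of 1 RPKM or more (Cd68, Pecam1, Mitf and Dcn). In this single cell line their sums are therefore no measure of cell types. The part of the marker movements in the values of the integrins was not tested. In bulk RNA, fewer cells that express a gene and less of its RNA per cell cannot be told apart.

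**Figure D2:**
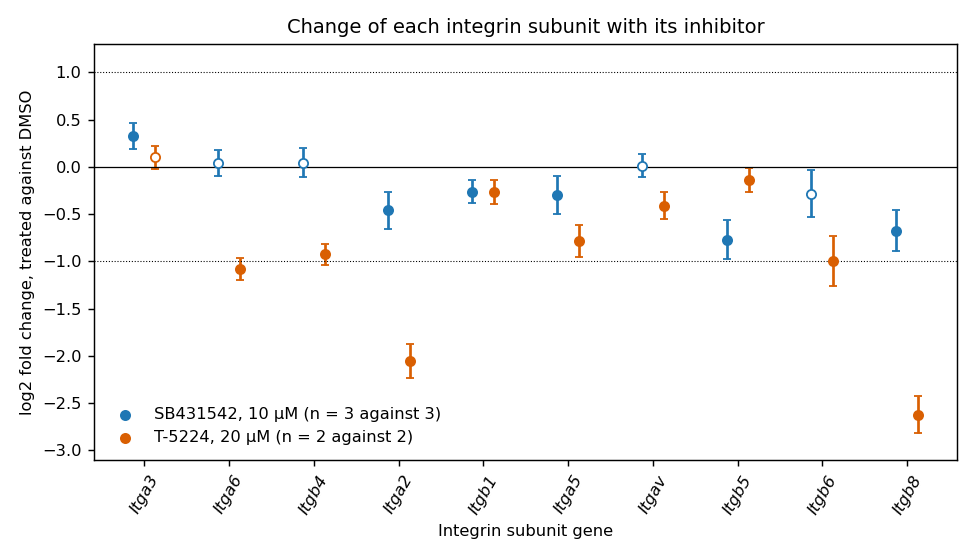
Log2 fold change of each integrin subunit against its own DMSO libraries with the limma 95% confidence interval, for SB431542 (blue) and T-5224 (orange). Filled points passed an adjusted p of 0.05, open points did not, and dotted lines mark a 2-fold change; with T-5224 Itgb8 lies at −2.62 and Itga2 at −2.05, and Itga3 is the 1 subunit above 0 under both inhibitors.

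Of the laminin receptor chains, α3 was higher with SB431542, and α6 and β4 were lower with T-5224. Itga3 (chr11:94905788-94938115 of mm9, minus strand, 26 exons) encodes the α chain of α3β1. It measured 117, 125 and 123 RPKM in DMSO and 143, 159 and 157 RPKM with SB431542. The groups did not overlap, and the log2 fold change was 0.33 ± 0.058 (limma adjusted p = 0.00999). In the T-5224 experiment Itga3 measured 74.6 and 76.6 RPKM in DMSO and 83.8 and 78.6 RPKM with the inhibitor. Both treated libraries were above the controls, but the change of 0.10 ± 0.055 did not pass (adjusted p = 0.106, 95% interval −0.018 to 0.222).

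Itga6 (chr2:71583673-71696473, plus strand, 26 exons, overlapped by 3 lincRNAs and 1 pseudogene) encodes the α chain of the hemidesmosomal receptor. Its SB431542 experiment gave 68.4, 74.4 and 75.7 RPKM in DMSO against 78.0, 74.7 and 72.1 RPKM treated. The groups overlapped, with a log2 fold change of 0.04 ± 0.059 (limma adjusted p = 0.645, interval −0.096 to 0.181). With T-5224 the libraries were at 42.0 and 41.7 RPKM, below the DMSO values of 88.4 and 89.9 RPKM. That difference was −1.08 ± 0.052 (adjusted p = 4.82e-09).

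Itgb4 (chr11:115836023-115869726, plus strand, 40 exons, overlapped by an antisense lincRNA) encodes the β chain that pairs with α6 alone and carries a long cytoplasmic tail that binds plectin. It measured 170, 195 and 197 RPKM in DMSO and 193, 194 and 190 RPKM with SB431542. DMSO replicate 1 was the low library here, and the change of 0.04 ± 0.067 did not pass (limma adjusted p = 0.673, interval −0.112 to 0.200). With T-5224 it measured 124 and 126 RPKM against 235 and 241 RPKM in DMSO, a log2 fold change of −0.93 ± 0.049 (adjusted p = 1.16e-08). The ratio of Itgb4 to Itga6 was 2.48 to 2.62 in DMSO and 2.48 to 2.64 with SB431542, and 2.66 to 2.68 in DMSO and 2.95 to 3.02 with T-5224. These ranges overlapped with SB431542 and did not with T-5224, where the α6 mean was the lower of the pair relative to DMSO.

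Itga2, the α chain of the collagen receptor, was among the members with the lowest ratio to DMSO under T-5224. It lies on chr13:115626124-115722249 of mm9, minus strand, with 30 exons. The promoter sequences of Itga2, Itgb8 and Itgb5 are shown because these 3 genes gave the largest log2 changes in the lower direction, Itgb5 with SB431542 and the other two with T-5224. Each runs from 250 bases before to 50 bases after a RefSeq start in GRCm38.p6, in the direction of the gene, at chr13:114932051-114932350 (minus), chr12:119238227-119238526 (minus) and chr16:33829415-33829714 (plus). The last bases of the Itgb8 and Itgb5 windows were found near the start of a coding transcript of the gene in GENCODE vM1 (mm9). Those of Itga2 were not, and neither were those of the Itga5 window, which is not printed. Capitals mark CAGAC or its reverse complement GTCTG, the letters of the SMAD binding element.
Itga2: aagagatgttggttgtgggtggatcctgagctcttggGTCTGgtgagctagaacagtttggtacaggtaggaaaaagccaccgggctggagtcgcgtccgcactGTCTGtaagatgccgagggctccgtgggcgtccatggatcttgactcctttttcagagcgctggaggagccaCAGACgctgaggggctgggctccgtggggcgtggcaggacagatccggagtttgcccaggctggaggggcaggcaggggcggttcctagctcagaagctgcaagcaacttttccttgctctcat
Itgb8: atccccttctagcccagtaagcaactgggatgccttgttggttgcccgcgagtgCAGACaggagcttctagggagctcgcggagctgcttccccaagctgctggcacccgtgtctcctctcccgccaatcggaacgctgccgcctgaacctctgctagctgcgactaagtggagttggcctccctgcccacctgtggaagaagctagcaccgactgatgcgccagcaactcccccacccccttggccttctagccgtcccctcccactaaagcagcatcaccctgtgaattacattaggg
Itgb5: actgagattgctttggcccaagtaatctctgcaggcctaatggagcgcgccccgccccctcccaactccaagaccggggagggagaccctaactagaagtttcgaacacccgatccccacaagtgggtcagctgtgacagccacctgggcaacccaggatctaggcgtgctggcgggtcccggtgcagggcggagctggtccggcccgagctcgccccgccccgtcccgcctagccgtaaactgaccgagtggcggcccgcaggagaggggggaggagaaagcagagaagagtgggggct

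Promoters were found for 8 of the 10 members, 10 promoters in all, and Itga6 and Itgb4 had no entry. The letters CAGAC, searched on both strands, stood in a promoter of 6 of the 8 genes, Itga2, Itga3, Itga5, Itgb1, Itgb6 and Itgb8, beside 53.2% of all 27025 genes with a promoter. Counted by promoter, that was 6 of 10 members' promoters and 49.6% of all 32851. They were found in neither the Itgav nor the Itgb5 window. The AP-1 site TGACTCA was found in no member promoter and in 5.2% of all promoters, and the CRE site TGACGTCA in none and in 1.8%. A match is a string of letters in this window and no measure of binding, and sites outside the window were not searched. The printed promoters held 59.3% GC (Itga2), 60.7% (Itgb8) and 65.7% (Itgb5), beside a median of 52.7% over all promoters.

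In the SB431542 experiment Itga2 measured 13.6, 12.5 and 10.97 RPKM in DMSO and 9.13, 8.65 and 8.62 RPKM treated. Every treated library was below every control, and the mean fell by 28.8% (log2 fold change −0.46 ± 0.083, limma adjusted p = 0.0105). The call was lost without SB431542 replicate 2 and without replicate 3, at an adjusted p of up to 0.0550. With T-5224 Itga2 measured 3.42 and 3.85 RPKM, against 16.5 and 16.8 RPKM in DMSO. The mean fell by 78.2%, a log2 fold change of −2.05 ± 0.081 (adjusted p = 1.03e-09). Its partner Itgb1 was lower by less, so that the ratio of Itgb1 to Itga2 was 9.25 to 10.1 in DMSO and 33.9 to 40.1 with T-5224.

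Itgb1, the chain shared by α2, α3, α5 and several other α subunits, was lower by a similar small step in both experiments. It lies on chr8:131209554-131257100, plus strand, with 16 exons. Its DMSO libraries of the SB431542 experiment held 269, 247 and 252 RPKM and the treated libraries 214, 211 and 215 RPKM. The groups did not overlap, and the change was −0.26 ± 0.052 (limma adjusted p = 0.0144). That call was lost with the replicate block and without any 1 of the SB431542 libraries, where the adjusted p reached 0.0780. In the T-5224 experiment Itgb1 measured 167 and 155 RPKM in DMSO and 137 and 130 RPKM treated, a change of −0.27 ± 0.056 (adjusted p = 0.00100). The ratio of Itgb1 to Itga3 lay at 1.98 to 2.29 in DMSO and 1.33 to 1.49 with SB431542, and at 2.02 to 2.24 in DMSO and 1.64 to 1.66 with T-5224.

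Itga5 (chr15:103174720-103197194, minus strand, 30 exons) encodes the fibronectin-binding α chain. It measured 8.80, 10.0 and 10.9 RPKM in DMSO and 8.09, 8.23 and 7.49 RPKM with SB431542. The groups did not overlap, but the change was small, −0.30 ± 0.085, and close to the threshold (limma adjusted p = 0.0471). It lost the call in 9 of 16 alternatives, among them the replicate block, no filter on low values and the fits without each SB431542 library and without DMSO replicate 2 or 3. With T-5224 Itga5 measured 11.1 and 12.1 RPKM against 19.3 and 21.3 RPKM in DMSO, a change of −0.78 ± 0.075 (adjusted p = 1.64e-06).

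Itgav (chr2:83564554-83647073, plus strand, 30 exons, overlapped by a lincRNA and a pseudogene on the other strand) encodes the α chain that β5, β6 and β8 share. In the SB431542 experiment it measured 28.5, 29.3 and 27.8 RPKM in DMSO and 29.2, 27.8 and 29.5 RPKM treated. The groups overlapped, and the interval of the change ran from −0.106 to 0.133 (limma adjusted p = 0.872). With T-5224 Itgav was at 16.4 and 16.96 RPKM, below 23.2 and 21.4 RPKM in DMSO, with a change of −0.41 ± 0.066 (adjusted p = 1.37e-04).

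Among the β partners of αv, Itgb5 and Itgb8 had the lowest means relative to DMSO of all 10 members with SB431542. Itgb5 (chr16:33829751-33949239, plus strand, 15 exons) encodes the β chain of a vitronectin receptor. It measured 55.001, 65.7 and 68.3 RPKM in DMSO and 37.4, 37.9 and 34.4 RPKM with SB431542. All treated libraries lay below the lowest control, and the mean fell by 41.9% (log2 fold change −0.77 ± 0.088, limma adjusted p = 0.00182). With T-5224 the step was small: 78.0 and 74.2 RPKM against 80.9 and 86.7 RPKM in DMSO, a change of −0.14 ± 0.057 (adjusted p = 0.0413). This call was lost with no filter on low values, with no trend in the prior variance, and without DMSO replicate 2 (by its column number) or T-5224 replicate 2, with an adjusted p of up to 0.271 when a library was left out.

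Itgb8 (chr12:120396495-120477275, minus strand, 14 exons), the β chain of the latent TGFβ receptor αvβ8, was lower in both experiments. It measured 6.35, 7.59 and 8.18 RPKM in DMSO and 4.46, 4.44 and 4.31 RPKM with SB431542. The mean fell by 40.3% and the groups did not overlap (−0.68 ± 0.093, limma adjusted p = 0.00385). With T-5224 it measured 1.63 and 1.70 RPKM against 12.4 and 13.2 RPKM in DMSO, so that the mean fell by 87.0%, with a log2 fold change of −2.62 ± 0.088 (adjusted p = 2.47e-10). Of the 10 members this was the largest change in either experiment.

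Itgb6 (chr2:60436349-60560700, minus strand, 15 exons) encodes the β chain of the epithelial latent TGFβ receptor αvβ6, and was the least abundant member. With SB431542 it measured 4.001, 3.63 and 4.32 RPKM, beside 4.24, 5.21 and 5.46 RPKM in DMSO. The groups overlapped, and the change of −0.28 ± 0.106 did not pass (limma adjusted p = 0.09999, interval −0.532 to −0.035). With T-5224 it measured 1.18 and 1.51 RPKM against 3.12 and 3.21 RPKM in DMSO. The change of −0.995 ± 0.122 (adjusted p = 1.38e-05) was just short of 2-fold on the log2(RPKM + 0.5) scale, which understates changes at such levels, and the ratio of the means was 0.425.

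The RPKM of a β chain can be set against that of its α partner library by library. The ratio of Itgb5 to Itgav lay at 1.93 to 2.45 in DMSO and 1.17 to 1.36 with SB431542, and at 3.49 to 4.05 in DMSO and 4.37 to 4.76 with T-5224. The ratio of Itgb8 to Itgav was 0.223 to 0.294 in DMSO and 0.146 to 0.160 with SB431542, and 0.536 to 0.617 in DMSO and 0.0997 to 0.1002 with T-5224. In each of these comparisons the DMSO and treated libraries did not overlap, with no test made on the ratios. Summed over the 5 α chains, the libraries held 237 to 251 RPKM in DMSO and 268 to 278 RPKM with SB431542, while the 5 β chains held 504 to 531 and 448 to 453 RPKM. With T-5224 both sums were below DMSO, 153 to 157 against 222 to 226 RPKM for α and 334 to 342 against 499 RPKM for β. Itga3 made up 33.6 to 33.9% of the α sum in DMSO and 51.3 to 53.5% with T-5224, beside the lower values of the other 4 α chains.

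**Figure D3:**
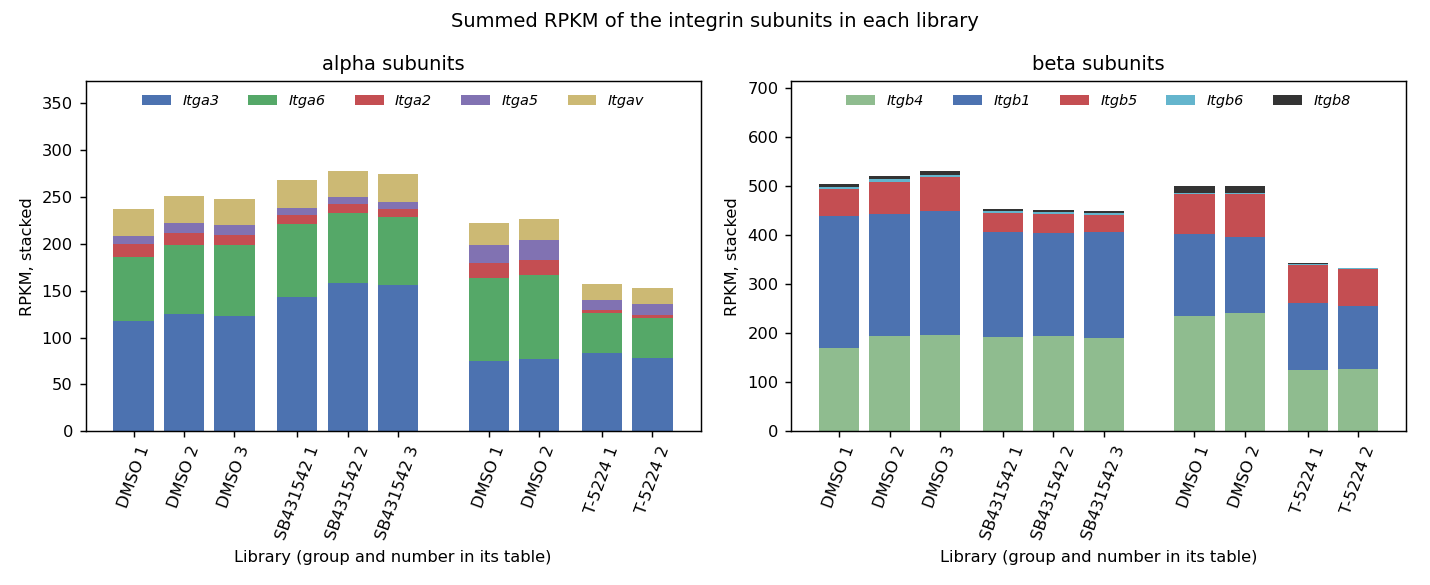
RPKM of the α subunits (left) and β subunits (right) stacked for each of the 10 libraries, with the bars starting at 0 and libraries named by group and their number in the table. The β stack stands at 499 RPKM in both DMSO libraries of the T-5224 experiment and at 334 to 342 RPKM with T-5224.

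Other integrin subunits were nearly absent. Of 17 further subunit genes, 15 were listed in the SB431542 table and 13 in the T-5224 table, and none reached a mean of 1 RPKM over all libraries of a table, so none entered the tests above. Itgb3, the β chain of the vitronectin receptor αvβ3, measured 0.190, 0.333 and 0.357 RPKM in DMSO and 0.0230, 0.0450 and 0.0100 RPKM with SB431542, or about 39, 93 and 82 reads against 6, 11 and 3. It measured 1.01 and 1.06 RPKM in DMSO and 0.0300 and 0.0280 RPKM with T-5224, about 184 and 237 reads against 9 and 8. In the fit with no filter on low values Itgb3 was lower in both experiments (limma adjusted p = 0.0134 and 1.17e-04).

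Itga8, the α chain that pairs with β1 and binds nephronectin, measured 0.282, 0.281 and 0.308 RPKM in DMSO and 1.05, 0.929 and 0.869 RPKM with SB431542. In the unfiltered fit it was higher by 0.87 ± 0.069 on the log2(RPKM + 0.5) scale (limma adjusted p = 0.00211). That scale understates changes at such levels, and the ratio of the means was 3.27. In the T-5224 table Itga8 stayed at 0.0530 RPKM or less in every library. With T-5224 and no filter, Itga7 (0.0160 and 0.0380 RPKM in DMSO, 0.510 and 0.357 RPKM treated) and Itgb7 (0.140 and 0.123, then 0.542 and 0.430 RPKM) were higher, and Itga1 (0.375 and 0.326, then 0.0840 and 0.0910 RPKM) was lower, with adjusted p values of 0.00179, 0.00224 and 0.00144. The gene Mettl7b overlaps Itga7 on the other strand and Pelo lies within Itga1, so their reads could be shared. Itga2b measured 0.439 to 0.504 RPKM in all SB431542 libraries and their controls, and 0.528 and 0.607 RPKM in DMSO beside 0.744 and 1.14 RPKM with T-5224 (adjusted p = 0.0793). The remaining listed subunits, among them the leukocyte chains Itgal and Itgb2, had group means below 0.1 RPKM in each table.

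Integrins signal through talins and kindlins, which bind the β tail and switch the receptor on, and through the adaptors around them. Of a list of 36 such genes, 28 were tested in the SB431542 experiment and 29 in the T-5224 experiment. With SB431542, 9 were lower and 1 higher, none beyond 2-fold, with a median log2 fold change of −0.17. Over all genes tested, 10.0% were lower and 10.2% higher. Talin 1 (Tln1, 55.5 ± 3.51 RPKM in DMSO and 55.8 ± 0.397 treated, n = 3) did not pass, with a change of 0.01 ± 0.059 (limma adjusted p = 0.914). Talin 2 (Tln2) was lower, by −0.36 ± 0.061 (adjusted p = 0.00822), and so was kindlin-1 (Fermt1), by −0.26 ± 0.065 (adjusted p = 0.0316). Kindlin-2 (Fermt2) did not pass (−0.19, adjusted p = 0.0959).

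With T-5224, 20 of the 29 activators and adaptors were lower and 6 higher, 7 and 2 of them beyond 2-fold, with a median of −0.45. Over all genes tested, 39.4% were lower and 40.3% higher, 10.6% and 10.4% beyond 2-fold. Tln2 went from 13.8 ± 1.20 to 2.73 ± 0.198 RPKM (SD, n = 2), or −2.15 ± 0.091 on the log2 scale. Fermt1 was at −1.10 ± 0.068, while Tln1 and Fermt2 changed less (−0.49 and −0.47). Tensin 4 (Tns4), which binds β tails, was at −1.73 ± 0.061. The endocytic adaptor Dab2 and the ILK complex partner Rsu1 were at −1.72 and −1.70. All 7 passed (limma adjusted p of at most 0.000814), and with SB431542 Tns4 and Dab2 were also lower (−0.53 and −0.44). The 2 genes higher beyond 2-fold with T-5224 were Lims2 (1.20 ± 0.0792 to 4.57 ± 0.0990 RPKM, 1.58 ± 0.106) and Zyx (137 ± 4.83 to 325 ± 8.12 RPKM, 1.24 ± 0.052). Ptk2, Pxn, Lims1 and Itgb1bp1 were higher by less (0.74, 0.66, 0.56 and 0.52).

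The ligands of the same receptors moved in both directions. Of 30 matrix genes, 18 were tested with SB431542 (7 lower, 2 higher, median −0.16) and 17 with T-5224 (9 lower, 5 higher, median −0.31). The shares over all genes tested were 10.0% lower and 10.2% higher with SB431542, and 39.4% and 40.3% with T-5224. Thrombospondin 1 (Thbs1), which can also activate latent TGFβ, fell from 203 ± 4.94 to 68.6 ± 4.47 RPKM with SB431542 (−1.56 ± 0.061) and from 143 ± 2.21 to 8.56 ± 0.235 RPKM with T-5224 (−3.98 ± 0.056). Tenascin C (Tnc) was lower by −0.83 ± 0.050 and −2.83 ± 0.056. Osteopontin (Spp1), an RGD ligand of αv integrins, was higher in both, 7.79 ± 0.609 to 18.2 ± 0.943 RPKM with SB431542 and 1.72 ± 0.332 to 28.9 ± 0.654 RPKM with T-5224 (1.17 ± 0.073 and 3.73 ± 0.101).

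Fibronectin (Fn1), the ligand of α5β1, did not pass with SB431542 (−0.09 ± 0.057, limma adjusted p = 0.293) and was higher with T-5224, at 107 ± 1.21 RPKM in DMSO and 226 ± 5.59 RPKM treated (1.08 ± 0.050). Lamb3, a laminin β chain of the epidermal basement membrane, was lower with T-5224 (−0.64 ± 0.055) and did not pass with SB431542 (−0.15, adjusted p = 0.125). Col4a5, a basement membrane collagen chain, was lower with T-5224 (−1.33 ± 0.064) and did not pass with SB431542 (−0.17, adjusted p = 0.262).

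Of the 9 genes of latent TGFβ and the proteins that carry it, 6 were tested. With SB431542, 2 were lower and 4 did not pass, with a median of −0.09. With T-5224 all 6 tested were lower, 3 of them beyond 2-fold, with a median of −1.13. Over all genes tested, 10.0% were lower with SB431542 and 39.4% with T-5224, 10.6% beyond 2-fold with T-5224. Tgfb2 went from 25.1 ± 1.25 to 1.27 ± 0.0863 RPKM with T-5224 (−3.85 ± 0.085) and did not pass with SB431542 (−0.07, limma adjusted p = 0.562). Its propeptide lacks the RGD sequence that αvβ6 and αvβ8 bind in those of Tgfb1 and Tgfb3. Tgfb1 did not pass with SB431542 (0.02, adjusted p = 0.888) and was lower by a small step with T-5224 (−0.17 ± 0.061, adjusted p = 0.0247). Tgfb3, the least abundant of these ligands, was lower in both (−0.72 ± 0.101 and −1.60 ± 0.132). Its means went from 1.60 to 0.778 RPKM with SB431542 and from 2.54 to 0.507 RPKM with T-5224. At such levels the log2(RPKM + 0.5) scale understates changes, and the ratios of the means were 0.486 and 0.199. Ltbp1, which tethers latent TGFβ to the matrix, was also lower in both (−0.46 and −1.86).

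The hemidesmosome and tetraspanin partners of α6β4 and α3β1 numbered 8, and all were tested. With SB431542, 2 were lower, Dst, the gene of the plakin BPAG1 (281 ± 19.3 to 189 ± 1.49 RPKM, −0.57 ± 0.061), and Col17a1, the transmembrane collagen of the hemidesmosome (740 ± 29.2 to 508 ± 5.26 RPKM, −0.54 ± 0.053), while α6 and β4 themselves did not pass. With T-5224, 7 of the 8 were lower, and the 2 beyond 2-fold were again Dst (−2.39 ± 0.067) and Col17a1 (−1.86 ± 0.070). The list medians were −0.09 and −0.75. Of all genes tested, 10.0% were lower with SB431542 and 39.4% with T-5224, 10.6% beyond 2-fold with T-5224.

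**Figure D4:**
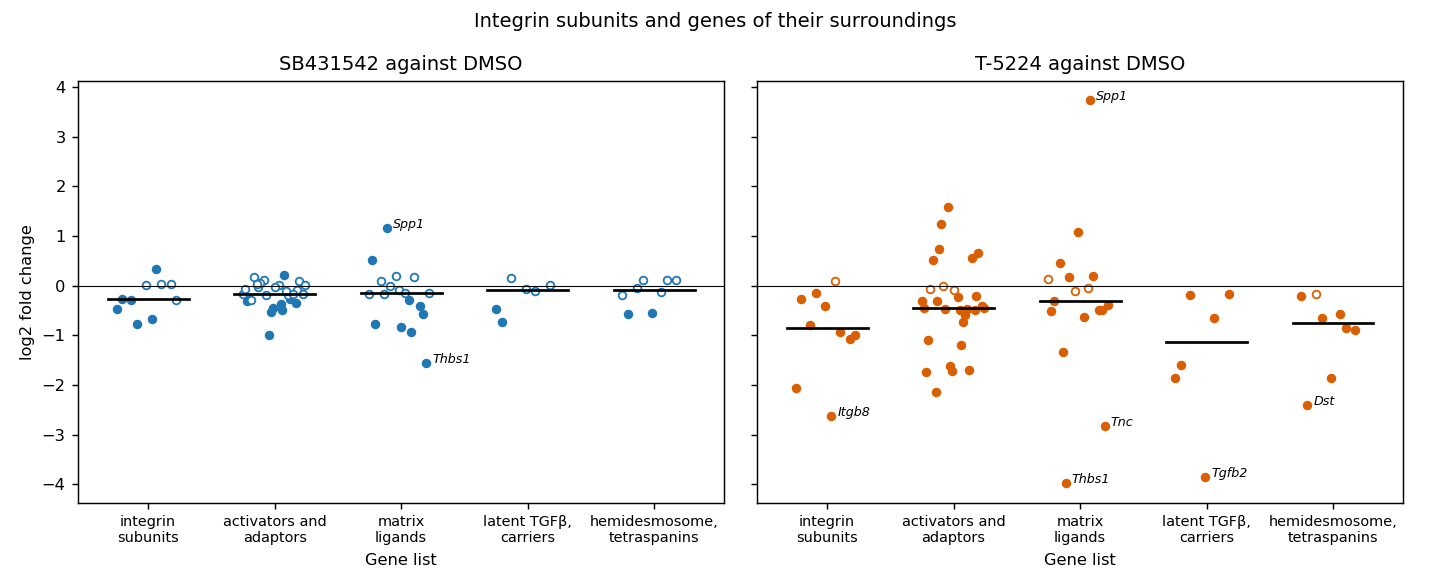
Log2 fold change of every tested gene in the integrin subunits and in 4 lists of genes around them, for SB431542 (left) and T-5224 (right), each point a gene and each bar a list median. Filled points passed an adjusted p of 0.05 and open points did not; the medians with T-5224 are −0.86 for the subunits and −1.13 for latent TGFβ and its carriers, and Spp1 stands above 0 in both panels.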

How the data were processed

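RNA-seq of ASZ001 cells (3 DMSO and 3 SB431542 libraries; 2 DMSO and 2 T-5224 libraries) was read from 1 table per experiment. The deposited values are RPKM made by the authors, who aligned reads with TopHat to mm9 and counted with HOMER; the kit was stranded, and the strand setting of the counting is not given in the sources used here. The study's methods tested raw counts, which were not used here, so values were tested on a log scale. All 10 value columns were used. The DMSO libraries of the T-5224 table, 1 and 2 by column, carry the numbers 4 and 5 in the labels and were matched by group. The study calls replicates biological and its data in general independent cultures, without saying so library by library. The p-values rest on the spread between these libraries and on a prior variance that limma estimates from all genes tested. With 2 libraries a group they lean mostly on the prior.

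Date-like gene names were dropped (22 and 23 rows). Genes with a mean of at least 1 RPKM were tested, 10842 and 10809, on log2(RPKM + 0.5) in limma 3.58.1 (R 4.3.3; eBayes with a trend, 2-sided p, Benjamini-Hochberg over the genes tested); the script was tested on simulated data. RPKM values of genes under 250 bases were whole multiples of 1 read within 0.05 in 98.8 to 100.0% of 112 to 168 values per library, which gave the depth; read numbers behind a value are approximate, from the longest coding transcript in GENCODE vM1. Positions are from that annotation (mm9) and promoters from RefSeq (GRCm38.p6).

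The members, lists, motifs and tests were chosen with earlier results of these data known. All members are named. Of the lists, fixed genes are named, with at most 4 genes per list and experiment that passed with a change beyond 2-fold. The activators and adaptors that were higher with T-5224 are named as well. Some of the fixed genes are not reported here. Alternatives were the pseudocount, the filter, median centring, quantile normalization, no trend, a 2-fold limit, an unadjusted p, the replicate block and leaving out each library.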

Additional observations from a re-analysis of the deposited data

How the results depend on the processing

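The count of members lower with SB431542 (5) was 0 with a 2-fold limit, 3 with the replicate block, and 2 to 6 when 1 library was left out; the count higher (1) was 0 with the 2-fold limit and 0 to 1 with a library left out. With T-5224 the count lower (9) was 3 with the 2-fold limit and 8 or 9 under every other alternative, and the count higher stayed at 0. Apart from the stricter limit itself, the causes of these differences were not tested. Same-numbered DMSO and SB431542 libraries deviated with correlations of −0.148, 0.151 and −0.0949, and not every library correlated best with its own number. The labels do not say whether same-numbered libraries belong together, and correlations this small between so few libraries cannot decide it. Over all genes the block gave 699 lower and 572 higher, against 1085 and 1107 without it. With an unadjusted p these counts were 1842 and 2070, without DMSO replicate 1 they were 1912 and 2162, and without DMSO replicate 2 they were 674 and 643. Without an SB431542 library they were 431 to 528 and 301 to 356. No block was fitted for T-5224, as its DMSO libraries are 4 and 5 in the labels and which of its DMSO columns is which is not given.

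Near-zero changes that crossed 0 with SB431542 were those of Itga6 (−0.0051 with quantile normalization, −0.0022 to 0.071 with a library left out), Itgb4 (−0.013, and −0.024 to 0.081), Itgav (−0.013, and −0.0043 to 0.038), Tgfb1 (−0.0067, and −0.025 to 0.092), Tln1 (−0.011, and −0.042 to 0.040) and, with a library left out, Tgfb2 (−0.120 to 0.0101). With T-5224, Itga3 was at −0.022 with quantile normalization.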
